A study of Mus musculus with 12 samples.

Results

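Transcripts of MIN6 cells that had been given amino acids back for 3 h were compared with those of cells that had never been starved. MIN6 is an insulin-secreting line from a mouse insulinoma and serves as a stand-in for pancreatic β-cells. The comparison was chosen by sample label and takes 6 of the 12 libraries of the series, 3 labelled as control and 3 labelled as re-added, and all genes, of which 16844 of 49315 passed the filter on low counts. The control cells were wild-type MIN6 without treatment. The re-added cells were wild-type MIN6 that received amino acids for 3 h after a time without them. That time is not given for these cells, but a separate group of 3 libraries, called starved here, had 16 h without amino acids. The last 3 libraries received amino acids together with "Rap", an agent that the labels do not spell out. They entered only the filter on low counts, the scaling of libraries and the estimate of the spread. All groups grew in DMEM with 15% FBS and 2 mM glutamine at 37 degrees and 5% CO2. What the medium without amino acids contained, including serum, glucose and glutamine, is not given. Total RNA was sequenced as pairs of 150 bases. Whether separate cultures lie behind the libraries of a group is not stated, and p-values therefore reflect only library-to-library spread, possibly technical.

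Cells sense amino acids mainly through the kinase complex mTORC1, which promotes ribosome production and protein synthesis, and through the kinase GCN2, which is switched on by uncharged tRNA and raises the transcription factor ATF4. When mTORC1 is inactive, TFEB can enter the nucleus and raise genes of autophagy and lysosomes. FoxO factors, which insulin signalling through Akt keeps out of the nucleus, raise genes of protein breakdown and stress resistance. The hypoxia factor HIF1, whose synthesis depends in part on mTORC1, drives genes of glycolysis. In β-cells these pathways act beside Pdx1 and other homeobox factors that maintain the insulin genes, and the endoplasmic reticulum carries a heavy load of newly made insulin.

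The 6 libraries held 18846723 to 25631056 counted reads. Values below are CPM, counts scaled to a common library total (by TMM). Fold changes and adjusted p-values come from the quasi-likelihood test of edgeR with Benjamini-Hochberg adjustment. Standard errors (SE) were worked back from each fold change and the F statistic of that test. Transcripts of other cell types differed between the groups. Markers of fibroblasts, leukocytes and endothelium summed to 2304, 2751 and 2615 CPM of raw totals in the control libraries, while the starved libraries held 2246, 181 and 1089 CPM and the re-added ones 943, 174 and 168 CPM. Control and re-added libraries did not overlap in this sum, and re-added replicate 1 stood above the other 2 re-added libraries. Of the tested markers, 11 of 11 for fibroblasts, 14 of 14 for leukocytes, 11 of 12 for endothelium and 8 of 8 for lung epithelium were lower in the re-added group, with median log2 fold changes of -2.63, -2.92, -2.60 and -2.83. The β-cell markers were abundant in every library, as the cell type label has it, but were also lower, at 52187 to 68295 CPM in control and 42665 to 48095 CPM in re-added cells, with 5 of 10 called lower, 0 higher and a median of -0.40. Pancreatic acinar markers summed to 7.998 to 8.702 CPM in control and 17.8 to 19.6 CPM in re-added cells. Only 1 of these 9 markers passed the filter on low counts, and it was called higher. In bulk RNA, fewer cells of a type and less RNA per cell cannot be told apart. The labels name no source for leukocyte, endothelium or lung epithelium transcripts in this cell line, and how they came into the libraries was not tested. Follower genes below are those whose level rose with the marker sum among the 3 starved as well as among the 3 re-added libraries. Both slopes, carried to the mean marker sum of the control libraries, had to give more than 10% of the control level. This held for 4075 of 16844 tested genes. The re-added sums end at 943 CPM, so their slopes were carried beyond the libraries they come from. Each slope rests on 3 libraries, and how many genes meet the rule by library spread alone was not tested.

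**Figure D1:**
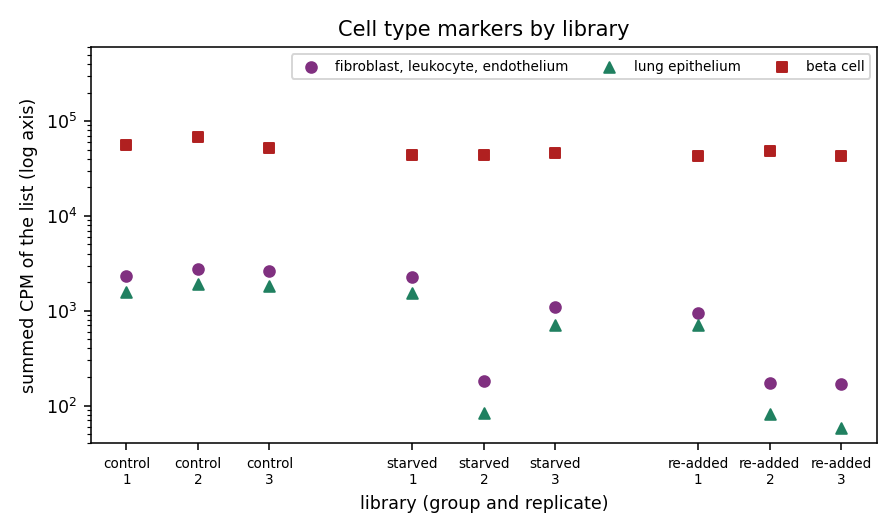
Summed CPM (raw totals, log axis) of 3 sets of cell type markers in each control, starved and re-added library, 1 point per set and library. The fibroblast, leukocyte and endothelium markers lie at 2304 to 2751 CPM in the control libraries and at 168 to 943 CPM in the re-added ones, while the β-cell markers stay above 42665 CPM in all libraries shown.

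After 3 h with amino acids, 4172 genes were higher than in never-starved cells (24.8% of those tested) and 4132 were lower (24.5%), and the median over all tested genes was 0.02 on the log2 scale. Changes of at least 2-fold were called upward in 663 genes (3.94%) and downward in 2065 genes (12.3%). Of those 2065 genes, 1736 (84.1%) were follower genes, beside 4075 of all 16844 tested genes. Among the followers 9.13% were called higher and 52.2% lower, and among the other 12769 genes 29.8% were called higher and 15.7% lower. The follower rule and the calls use the same re-added and control values, so these shares are a description and not an independent test. The groups did not overlap, with all re-added libraries above all control libraries, in 29.8% of tested genes, and with all of them below in 29.7%. With the marker sum as a covariate in the same fit, 434 genes were called higher and 743 lower. Since that sum does not overlap between the groups, its part and that of the treatment cannot be told apart for a gene that moves with both, and the counts called with the covariate are given beside each list. Fold changes also moved with exon length. The fifth of genes with the shortest summed exons, at most 1892 bases, had a median of -0.21, and the fifth with the longest, from 6661 bases, had 0.14. The same medians were -0.32 and 0.26 in starved against control.

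Each of 32 gene lists is described by its counts and median, beside the medians of starved against control. In starved cells 24.3% of all tested genes were higher and 14.6% lower than in control. Both comparisons use the same control libraries, so values of the starved group only show where a level stood in cells kept for 16 h without amino acids. Whether the re-added cells had stood there is not known, and "short of" and "past" control refer to the order of the 3 group means. By the rules used to choose examples, 547 lower and 924 higher genes lay between the starved and the control level, short of control. For 649 lower and 692 higher genes the control level lay between the starved and the re-added level, past control. All these are called genes of at least 5 CPM, with a proper symbol and no overlap of re-added and control libraries. Without those filters 4132 genes were called lower and 4172 higher. Short of control also asks for a call in starved against control, and past control only for a call in re-added against starved cells. Past control thus takes in genes not called in starved against control, whose order of starved and control means may be library spread. As the filters differ, the counts short of and past control cannot be compared with each other. Follower genes were 61 of the 547, 61 of the 924, 133 of the 649 and 55 of the 692.

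**Figure D2:**
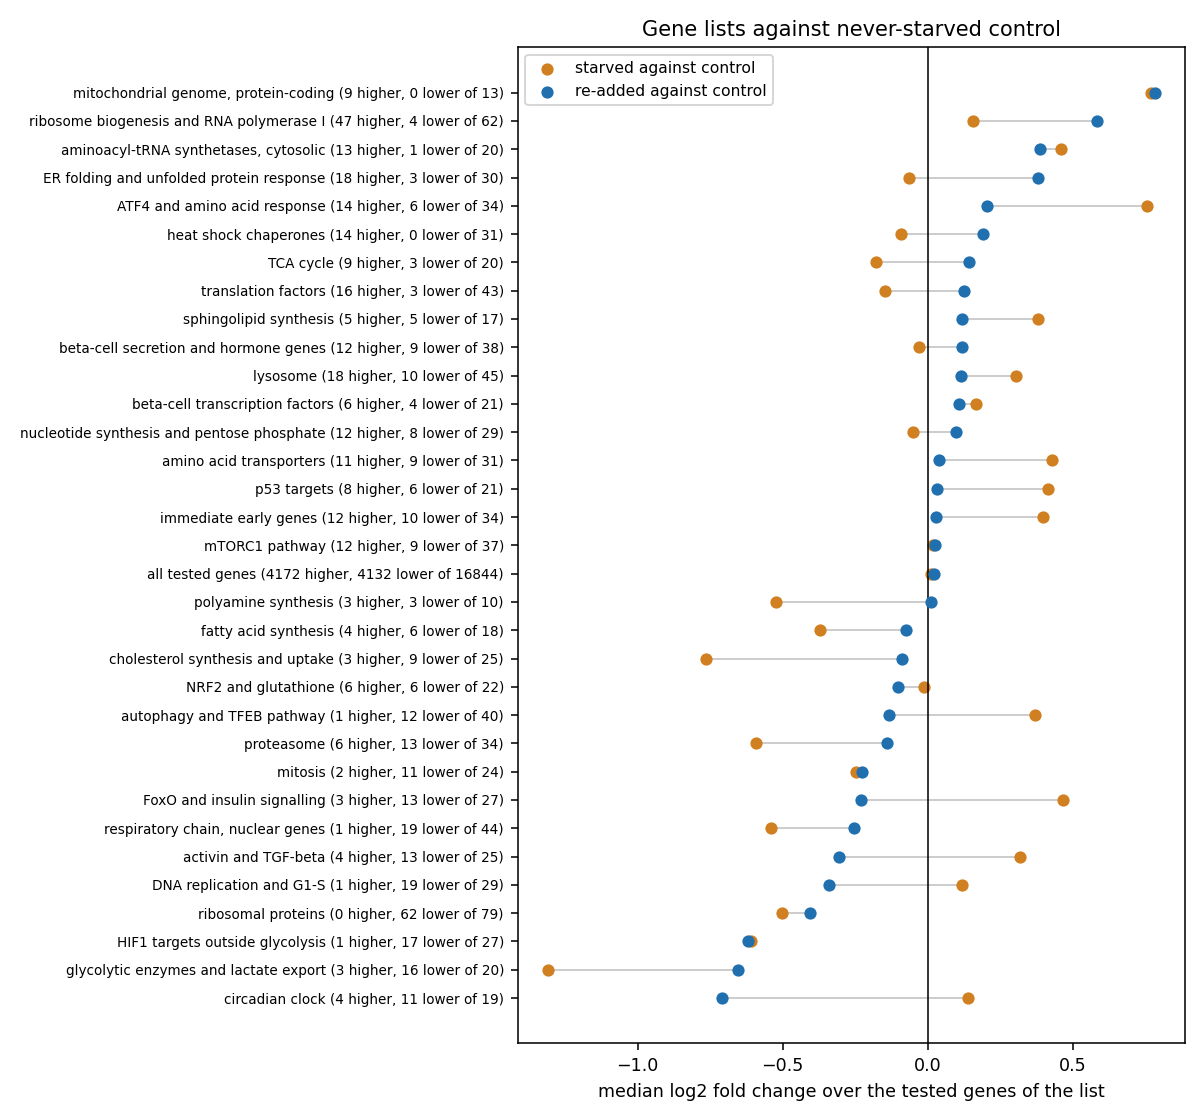
Median log2 fold change over the tested genes of each list, for starved against control (orange) and re-added against control (blue), with the number of genes called higher and lower in the latter beside each name. Ribosome biogenesis lies farther above 0 after re-addition (0.58) than in starved cells (0.16), glycolysis lies between its starved level (-1.31) and 0, and the clock, autophagy and FoxO lists lie on the other side of 0 from their starved medians.

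Most genes of glycolysis and most other HIF1 targets were below control. Of 20 glycolytic enzymes and lactate exporters, 16 were lower and 3 higher, with a median of -0.65 (-1.31 in starved cells). Of 27 other HIF1 targets, 17 were lower and 1 higher, with a median of -0.62 (-0.61 in starved cells). With the marker covariate 13 and 14 genes of these lists were called lower, with medians of -0.71 and -0.56. The higher ones, named here after their values were seen, were the neuronal-type glucose transporter Slc2a3 (0.24), the hexokinase Hk1 (0.45), the enolase Eno2 (0.67) and, outside glycolysis, Pfkfb4 (0.37), a regulator of fructose 2,6-bisphosphate. The promoters of 4 of the genes that fell are shown because HIF1 is known to act through the core letters ACGTG. The sequences are those of RefSeq on GRCm38.p6, from 250 bases before to 50 bases after the start site, 5′ to 3′ in the gene's direction, and capitals mark ACGTG or its reverse complement CACGT. Slc16a3 exports lactate (chr11:120948817-120949116 on the plus strand). Ldha makes lactate from pyruvate (chr7:46845554-46845853 on the plus strand). Pgk1 makes ATP in glycolysis (chrX:106186850-106187149 on the plus strand). Bnip3 marks mitochondria for autophagy (chr7:138909457-138909756 on the minus strand).
Slc16a3: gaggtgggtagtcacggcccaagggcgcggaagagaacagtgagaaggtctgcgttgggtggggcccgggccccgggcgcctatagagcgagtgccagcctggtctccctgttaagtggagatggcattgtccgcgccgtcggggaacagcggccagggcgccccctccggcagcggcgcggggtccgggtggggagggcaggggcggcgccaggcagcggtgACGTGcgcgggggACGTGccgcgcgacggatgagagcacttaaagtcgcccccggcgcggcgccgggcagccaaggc
Ldha: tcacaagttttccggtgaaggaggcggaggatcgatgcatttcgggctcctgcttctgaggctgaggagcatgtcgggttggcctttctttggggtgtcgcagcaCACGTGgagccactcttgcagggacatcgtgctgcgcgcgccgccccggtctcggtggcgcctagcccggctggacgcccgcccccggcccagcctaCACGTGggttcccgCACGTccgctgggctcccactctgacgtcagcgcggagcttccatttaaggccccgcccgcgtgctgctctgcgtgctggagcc
Pgk1: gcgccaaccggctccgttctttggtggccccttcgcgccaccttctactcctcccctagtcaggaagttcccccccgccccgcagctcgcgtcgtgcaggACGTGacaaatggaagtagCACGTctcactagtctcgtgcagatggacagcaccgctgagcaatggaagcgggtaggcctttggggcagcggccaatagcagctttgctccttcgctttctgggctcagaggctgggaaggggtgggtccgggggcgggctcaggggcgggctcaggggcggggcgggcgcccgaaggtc
Bnip3: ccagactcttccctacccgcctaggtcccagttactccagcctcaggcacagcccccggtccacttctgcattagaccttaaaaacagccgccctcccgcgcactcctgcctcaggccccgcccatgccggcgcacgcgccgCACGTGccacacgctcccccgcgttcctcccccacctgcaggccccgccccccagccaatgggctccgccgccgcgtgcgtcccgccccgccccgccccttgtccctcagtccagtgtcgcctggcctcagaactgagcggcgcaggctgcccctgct
Counting both strands, with CACGTG giving a pair of overlapping matches, the windows held 2 matches for Slc16a3, 5 for Ldha, 2 for Pgk1 and 2 for Bnip3. At least 1 match was present in 24.4% of 12083 promoters of tested genes, in 10 of the 19 glycolysis promoters found and in 12 of the 21 other HIF1 target promoters. Lists that did not fall held it at similar shares, with 6 of 12 promoters of cytosolic aminoacyl-tRNA synthetases and 17 of 34 of lysosome genes, and it was in 18 of 55 promoters of ribosome biogenesis and 9 of 31 of the ATF4 list. A match is a description of these letters and not a binding site.

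Ldha stood at 2806, 2901 and 2367 CPM in control, 204, 206 and 206 CPM in starved and 636, 642 and 606 CPM in re-added cells. No libraries of different groups overlapped, and the re-added level lay nearer the starved than the control level. Against control its log2 fold change was -2.10 (SE 0.08, adjusted p = 5.75e-08), and against starved cells it was 1.61 (adjusted p = 8.9e-08). Slc16a3 showed the same order, with 717, 749.7 and 686 CPM in control, 60.0, 59.9 and 58.7 CPM in starved and 203, 199 and 199.9 CPM in re-added cells. Its log2 fold change from control was -1.84 (SE 0.06, adjusted p = 1.78e-08). Pgk1 stood at 2085, 1916 and 1715 CPM in control and 639.9, 675 and 627 CPM after re-addition (-1.56, adjusted p = 4.96e-07), above its starved values of 336, 375 and 356 CPM. Ak4, an adenylate kinase of mitochondria, lay farthest from its starved level among the listed HIF1 examples. It was measured at 1.71, 1.28 and 1.41 CPM in starved, 13.6, 13.01 and 12.9 CPM in re-added and 47.5, 39.0 and 49.2 CPM in control cells (-1.78 against control, 3.15 against starved). Fam162a, a mitochondrial protein induced in hypoxia, was at 178 ± 33.3 CPM in control, 22.9 ± 1.498 CPM in starved and 54.3 ± 1.12 CPM in re-added cells (SD, n = 3). Bnip3 was low in both treated groups, with 83.3, 104 and 64.6 CPM in starved and 105, 109.9 and 98.1 CPM in re-added against 515, 475 and 311 CPM in control cells. Its fall from control passed the test (-2.05, adjusted p = 1.67e-05), and its difference from starved cells did not (0.32, adjusted p = 0.195). Bhlhe40, a transcription repressor of the clock that HIF1 also raises, behaved otherwise. It was near control in starved cells (71.5, 77.2 and 68.9 CPM against 60.2, 71.1 and 66.6 CPM) and fell after re-addition to 26.5, 22.8 and 26.9 CPM (-1.38, adjusted p = 1.56e-06). It was not alone among the lower HIF1 targets. Log2 fold changes from control, given after their values were seen, were 0.29 in starved and -1.14 in re-added cells for the MYC antagonist gene Mxi1, -0.22 and -1.20 for Bnip3l, a relative of Bnip3, -0.04 and -0.62 for the histone demethylase gene Kdm3a, and -0.20 and -0.49 for Egln1, a prolyl hydroxylase that marks HIF1 for breakdown.

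The 8 genes farthest below control among those lying between the starved and control levels included 3 described above, Ldha, Bnip3 and Slc16a3. A further pair encodes muscle-type subunits of cytochrome c oxidase. Cox6a2 stood at 11.7, 17.6 and 12.1 CPM in control and 1.85, 2.52 and 3.03 CPM in re-added cells (-2.48, SE 0.33, adjusted p = 0.000185). Its fall was not called with the marker covariate (-1.40, adjusted p = 0.155). Cox7a1 stood at 23.2, 29.1 and 20.6 CPM and 6.81, 5.05 and 5.03 CPM (-2.11, adjusted p = 5.25e-06), and kept its call with the covariate. Prss53, a serine protease, had little spread, with 245, 244 and 220.3 CPM in control, 39.7, 46.6 and 45.9 CPM in starved and 60.5, 59.9 and 59.1 CPM in re-added cells (-1.98 against control). The membrane protein Adam32 (-2.04, adjusted p = 9.12e-05) and the thymosin Tmsb15b2 (-1.95, adjusted p = 1.82e-05) complete the set. Each of the 8 had all re-added libraries below all control libraries. The rule that chose them took only genes without such overlap, so this separation is not a result.

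**Figure D3:**
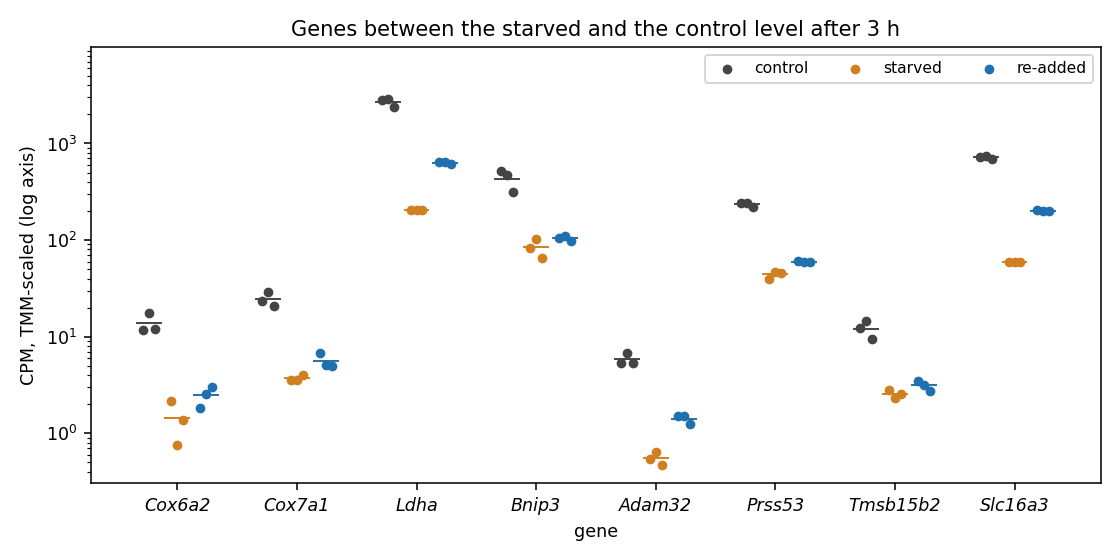
CPM (TMM-scaled, log axis) of the 8 genes with the largest remaining difference from control among those whose re-added mean lay between the starved and the control mean, 1 point per library, with bars at group means. All re-added points lie below all control points, since only genes without overlap were taken. For Ldha the 3 re-added libraries sit between 606 and 642 CPM against 2367 to 2901 CPM in control.

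Most genes that load amino acids onto tRNA were above control. Of 20 cytosolic aminoacyl-tRNA synthetases, 13 were higher and 1 lower, with a median of 0.39 (0.46 in starved cells). The lower gene, named after its value was seen, was Qars for glutamine (-0.28). With the marker covariate 2 were called higher and the median was 0.19. The promoters of Aars, for alanine, and Tars, for threonine, are shown because both hold the letters TTGCATCA, the kind of element to which ATF4 and C/EBP proteins bind together, marked here in capitals. They lie at chr8:111033592-111033891 on the plus strand and chr15:11399609-11399908 on the minus strand (RefSeq, GRCm38.p6, same window).
Aars: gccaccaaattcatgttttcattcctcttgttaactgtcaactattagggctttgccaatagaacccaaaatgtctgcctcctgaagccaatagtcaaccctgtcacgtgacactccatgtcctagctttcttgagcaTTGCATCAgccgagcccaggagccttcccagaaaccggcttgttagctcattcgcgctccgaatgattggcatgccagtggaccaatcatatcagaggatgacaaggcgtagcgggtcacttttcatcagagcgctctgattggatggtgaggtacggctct
Tars: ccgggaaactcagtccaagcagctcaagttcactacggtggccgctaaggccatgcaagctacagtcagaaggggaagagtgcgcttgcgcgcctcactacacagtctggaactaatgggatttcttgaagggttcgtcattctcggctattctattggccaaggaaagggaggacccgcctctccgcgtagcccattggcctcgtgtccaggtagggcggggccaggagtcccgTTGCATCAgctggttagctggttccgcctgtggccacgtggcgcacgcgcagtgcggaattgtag
These letters or the reverse complement TGATGCAA occurred in 0.596% of the 12083 promoters (72), in 4 of 12 synthetase promoters found and in 6 of 31 promoters of the ATF4 list.

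Aars stood at 347, 344 and 383 CPM in control, 621, 758 and 720.4 CPM in starved and 541, 579 and 571 CPM in re-added cells. It was thus down from the starved level (-0.31, adjusted p = 0.00913) but above control (0.65, SE 0.08, adjusted p = 0.000108). Tars had 63.8, 61.4 and 69.6 CPM in control and 91.8, 98.6 and 101 CPM in re-added cells (0.58, adjusted p = 0.000106), with no passed difference from starved cells (-0.08, adjusted p = 0.362). Neither gene was called with the marker covariate (0.38 with adjusted p = 0.0841, and 0.39 with adjusted p = 0.0881). Hars, for histidine, took another course, since its starved libraries overlapped control. It was at 71.9, 77.9 and 71.6 CPM in control, 67.3, 76.5 and 69.6 CPM in starved and 118, 116 and 117 CPM in re-added cells (0.67 against control, adjusted p = 2.15e-05), and it kept its call with the covariate.

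The median of the wider ATF4 list lay between the starved level and control. Of 34 genes, 14 were higher and 6 lower, with a median of 0.20, where starved cells had 27 higher, 1 lower and a median of 0.76. With the marker covariate 2 were called higher and 2 lower. Ddit3, the stress factor CHOP, stood at 25.0, 27.0 and 24.7 CPM in control, 56.7, 62.9 and 60.0 CPM in starved and 41.7, 43.6 and 45.4 CPM in re-added cells, with no overlap between groups (0.77 against control, SE 0.07, adjusted p = 2.23e-05). Ppp1r15a, whose product GADD34 helps restore translation, stood at 26.1, 28.2 and 26.4 CPM, 53.4, 59.4 and 54.1 CPM and 45.3, 48.5 and 45.0 CPM in the same groups (0.78, adjusted p = 1.34e-05). Phgdh, the first enzyme of serine synthesis, overlapped between re-added (98.2, 98.4 and 87.1 CPM) and starved cells (91.3, 116 and 97.4 CPM), against 54.8, 57.0 and 42.4 CPM in control (0.88, adjusted p = 0.000199). Its call was not kept with the covariate (adjusted p = 0.0822).

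Of 31 amino acid transporters, 11 were higher (35.5%, against 24.8% of all tested genes) and 9 lower (29%, against 24.5%), shares not far from those of all genes, with a median of 0.04 (0.43 in starved cells). The covariate left 1 higher and 3 lower and turned the median to -0.15, and 7 were higher without re-added replicate 3. Slc43a2, a carrier of large neutral amino acids, passed control from below. Its libraries stood at 59.8, 62.9 and 65.5 CPM in starved, 99.7, 95.5 and 123 CPM in control and 163, 171 and 186 CPM in re-added cells (0.71, adjusted p = 0.000196). Slc7a8, another large neutral amino acid carrier, was at 30.2, 28.8 and 36.1 CPM in control and 56.3, 57.7 and 62.7 CPM in re-added cells (0.89, adjusted p = 5.66e-05), and Slc7a3, a carrier of cationic amino acids, at 8.52, 10.5 and 9.25 CPM and 16.4, 20.2 and 18.9 CPM (0.98, adjusted p = 0.000111). Of these 3 transporters only Slc7a8 kept its call with the covariate. The betaine and GABA carrier Slc6a12 was among the 8 largest rises of all genes, from 2.19, 2.60 and 1.98 CPM to 12.1, 10.9 and 10.96 CPM (2.33, SE 0.14, adjusted p = 9.96e-07), and it was already raised in starved cells (8.18, 9.89 and 9.92 CPM).

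Genes that build ribosomes had the largest share called higher of the 32 lists. Of 62 genes of ribosome biogenesis and RNA polymerase I, 47 were higher and 4 lower, with a median of 0.58 (0.16 in starved cells, with 25 higher and 10 lower). The 4 lower genes, named after their values were seen, were Nop10 (-0.56), Taf1d (-0.46), Imp3 (-0.46) and Polr1d (-0.42). The covariate left 12 higher and 0 lower, with a median of 0.39. Rrp12, which helps export ribosomal subunits, stood at 27.3, 24.4 and 28.4 CPM in control, 24.2, 26.5 and 26.1 CPM in starved and 65.0, 66.6 and 64.9 CPM in re-added cells. Its control and starved libraries overlapped, and the re-added libraries were more than 2-fold above both (1.29, SE 0.07, adjusted p = 6.75e-07). Bysl, needed for the small subunit, and Bop1, needed for the large one, were below control when starved and above it after re-addition. Bysl went from 27.3, 30.3 and 30.9 CPM to 70.4, 77.4 and 72.9 CPM around a control level of 35.0, 40.4 and 39.5 CPM (0.94, adjusted p = 6.48e-06). Bop1 went from 47.3, 52.7 and 49.3 CPM to 104, 106 and 109 CPM around 61.4, 65.2 and 64.4 CPM (0.74, adjusted p = 9.37e-06). All 3 genes kept their calls with the covariate.

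Ribosomal protein genes themselves did not share that direction. Of 79 tested, 62 were lower and 0 higher, with a median of -0.40, and starved cells had 67 lower and a median of -0.50. This count moved with single libraries, to 33 without re-added replicate 3 and 74 without control replicate 3. With the marker covariate no gene was called, though the median was -0.37. A fit without follower genes called 71 of 72 lower, with a median of -0.51. The summed exons of these genes are short, with a median of 1662 bases against 3730.5 over all tested genes. Less the median of genes of like length the list stood at -0.26. Rps19 was at 269, 336 and 262 CPM in control and 178, 178 and 156 CPM in re-added cells (-0.76, adjusted p = 0.000431). Rpl13a was at 728, 789 and 641 CPM and 509, 487 and 439 CPM (-0.59, adjusted p = 0.00117). Many processed copies of these genes exist, so their counts may be split between copies. Among 43 translation factors 16 were higher and 3 lower (median 0.12), and the covariate left 3 and 0 with a median of -0.02. The lower count was 8 without control replicate 3, 6 without re-added replicate 1 and 1 without re-added replicate 3. Eif2b3 and Eif2b4, subunits of the exchange factor that recharges eIF2, were at 47.5 ± 0.889 and 109 ± 4.25 CPM in re-added cells against 26.3 ± 0.761 and 64.3 ± 2.33 CPM in control (SD, n = 3; 0.85 and 0.77, adjusted p = 2.66e-05 and 6.3e-06). Odc1, the rate-limiting enzyme of polyamine synthesis, rose from 357, 337 and 293 CPM in control to 784, 821 and 797 CPM (1.28, SE 0.09, adjusted p = 2.91e-06), while its starved libraries overlapped control (284, 348 and 339 CPM). Its inhibitor gene Oaz2 was lower (123, 133 and 111 CPM in control and 81.5, 82.0 and 77.8 CPM in re-added cells, -0.60, adjusted p = 8.25e-05).

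Many chaperone genes were called above control, and fewer with the covariate. In the endoplasmic reticulum list, 18 of 30 genes were higher and 3 lower, with a median of 0.38 (-0.06 in starved cells). The lower ones, named after their values were seen, were Sec61b (-0.61), Sdf2l1 (-0.36) and Derl2 (-0.27). In the heat shock list 14 of 31 were higher and 0 lower, with a median of 0.19 (-0.09 in starved cells). The covariate left 4 and 3 genes called higher, with medians of 0.12 and 0.02. Pdia4, a disulfide isomerase, went from 214, 248 and 239 CPM in starved cells through the control level of 347, 331 and 327 CPM to 576, 599 and 582 CPM (0.80 against control, SE 0.07, adjusted p = 7.89e-06). Wfs1, the Wolfram syndrome protein of the endoplasmic reticulum, rose from 69.1, 74.3 and 84.2 CPM to 143, 148 and 161 CPM (0.99, adjusted p = 2.01e-05). Ern1, which encodes the stress sensor IRE1α, was highest in starved cells (373, 455 and 415 CPM) and still above control after re-addition (287, 284 and 316 CPM against 131, 101 and 154 CPM, 1.201, adjusted p = 4.4e-05). In the cytosol, the co-chaperone Bag3 stood at 44.8, 48.9 and 47.5 CPM in control, 57.8, 65.4 and 63.8 CPM in starved and 105, 112 and 113 CPM in re-added cells (1.23, adjusted p = 6.75e-07). The inducible Hspa1a stood at 10.6, 10.9 and 10.9 CPM, 10.5, 9.14 and 12.1 CPM and 18.8, 20.6 and 22.2 CPM (0.93, adjusted p = 0.000101), and reads of its near-identical copy Hspa1b could be split with it. The starved libraries lay between control and re-added ones for Bag3 and overlapped control for Hspa1a. Hsph1, an HSP110 chaperone, was at 109 ± 18.3 CPM and 211 ± 3.53 CPM (SD, n = 3; 0.95, adjusted p = 0.0001), and its call was not kept with the covariate (adjusted p = 0.063).

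**Figure D4:**
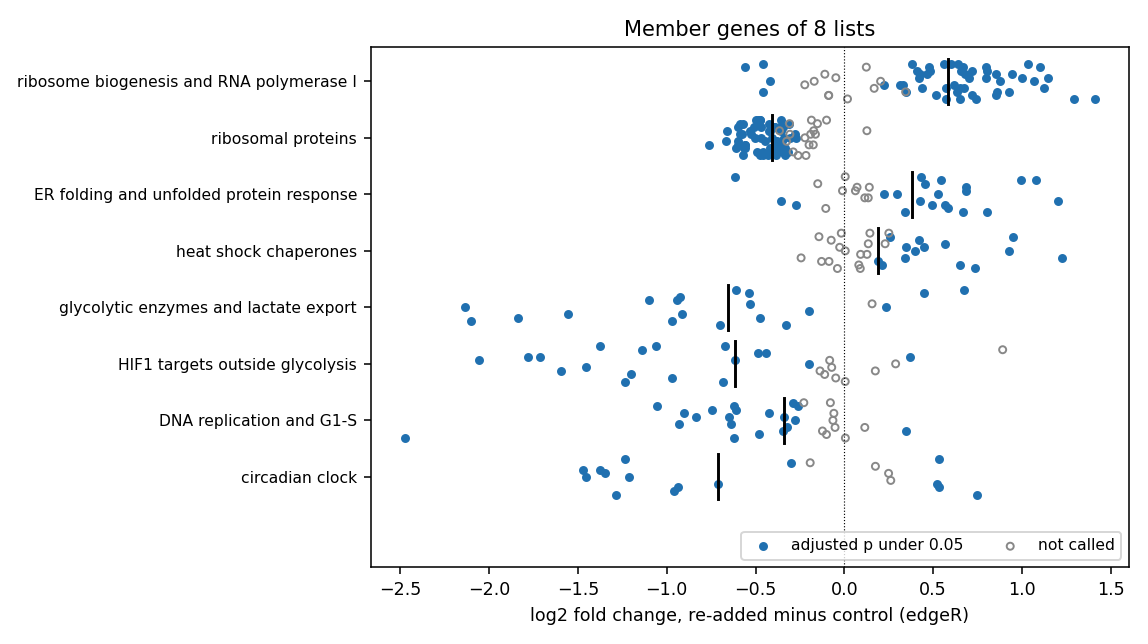
Log2 fold change of re-added against control for every tested gene of 8 lists, 1 point per gene, filled where the adjusted p from edgeR is under 0.05, with a bar at each median. Ribosome biogenesis genes lie mostly to the right of 0 and ribosomal protein genes to the left, and the clock list holds a low group and 4 genes called higher.

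Autophagy genes, mostly higher in starved cells, were no longer so after re-addition, and part of them lay below control, a share near that of all genes. Of 40 genes of autophagy and the TFEB pathway, 12 were lower and 1 higher, with a median of -0.13, where starved cells had 24 higher, 2 lower and a median of 0.37. The higher gene, named after its value was seen, was Wipi1 (0.42). The covariate left 8 lower and 0 higher, with a median of -0.31, and a fit without follower genes called 20 lower. With limma on log2(TPM + 1) the median was only -0.02, with 8 lower and 3 higher. Map1lc3b, which encodes the autophagosome protein LC3B, stood at 178, 176 and 157 CPM in control, 223, 269.7 and 240.5 CPM in starved and 78.9, 78.2 and 73.8 CPM in re-added cells. Each starved library was above and each re-added library below every control library (-1.14 against control, SE 0.08, adjusted p = 3.63e-06). Gabarapl1, of the same protein family, showed that order too, with 132, 112 and 132 CPM, 302, 341 and 319 CPM and 66.2, 66.0 and 61.9 CPM in those groups (-0.95, adjusted p = 8.48e-06). Flcn, folliculin, which acts on the Rag GTPases at the lysosome, went to 20.5, 18.8 and 20.4 CPM from 107, 127 and 103 CPM when starved, past 35.9, 36.9 and 40.3 CPM in control (-0.92, adjusted p = 2.11e-05). All 3 kept their calls with the covariate.

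Of 45 lysosome genes, 18 were higher than control and 10 lower, the latter a share near that of all genes (median 0.12, 0.31 in starved cells), and the covariate left 1 higher and 5 lower with a median of -0.02. The lower count was 5 without re-added replicate 3. Gaa, the acid glucosidase, stood at 597, 668 and 775 CPM in control, 1269, 1524 and 1492 CPM in starved and 1224, 1306 and 1324 CPM in re-added cells (0.92, adjusted p = 4.55e-05; against starved cells -0.15, adjusted p = 0.234). Tmem55b, a lysosomal membrane protein that acts in lysosome positioning, overlapped control in starved cells (116, 137 and 141 CPM against 121, 134 and 130.0 CPM) and was lower after re-addition (68.3, 61.5 and 63.7 CPM, -0.99, adjusted p = 1.04e-05). In the mTORC1 list 12 of 37 genes were higher (32.4%) and 9 lower (24.3%), against 24.8% and 24.5% of all tested genes (median 0.03). There were 6 higher without re-added replicate 3, and 0 higher and 3 lower with the covariate. Deptor, an inhibitor bound to mTOR, passed control downward, from 65.2, 77.1 and 69.1 CPM in starved to 21.7, 22.3 and 23.7 CPM in re-added cells around 38.0, 48.2 and 43.9 CPM (-0.94, adjusted p = 2.99e-05). Ddit4, the inhibitor REDD1, remained low at 109, 113 and 106 CPM against 223, 207 and 212 CPM in control and 93.4, 94.5 and 98.0 CPM in starved cells (-0.97, adjusted p = 3.48e-06).

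The median of the FoxO list lay below control after re-addition and above it in starved cells. Of 27 genes of FoxO and insulin signalling, 13 were lower and 3 higher, with a median of -0.23, against 15 higher, 3 lower and a median of 0.47 in starved cells. The list held 8 follower genes, and the covariate left 4 lower and 1 higher with a median of -0.22. Not all lower genes were above control in starved cells. Tsc22d3, a leucine zipper gene named after its value was seen, had log2 fold changes of -0.33 there and -0.58 after re-addition. Fbxo32, the ubiquitin ligase atrogin-1, stood at 10.3, 10.2 and 11.5 CPM in control, 39.1, 43.3 and 37.7 CPM in starved and 5.40, 4.29 and 4.56 CPM in re-added cells (-1.17, SE 0.11, adjusted p = 2.17e-05), and it kept its call with the covariate although it is a follower gene. Ccng2, a cyclin that restrains the cell cycle, was at 42.3, 35.4 and 36.9 CPM, 45.4, 50.8 and 45.8 CPM and 14.2, 13.7 and 10.96 CPM in those groups (-1.56, adjusted p = 4.93e-06). The receptor gene Igf1r was higher than control both starved (115, 136 and 126 CPM) and re-added (139.6, 133 and 158 CPM), against 60.8, 63.4 and 72.1 CPM (1.13, adjusted p = 8.92e-06). The remaining higher genes of the list, named after their values were seen, were Irs2 (1.46) and Pik3r1 (0.44), both of insulin signalling. In the activin and TGF-β list 13 of 25 were lower and 4 higher (median -0.30, 0.32 in starved cells), with 9 follower genes, and the covariate left 1 lower and 1 higher with a median of -0.26. The lower count was 5 without re-added replicate 2 and 7 without re-added replicate 3. Inhba, the activin A subunit, remained above control at 21.5, 22.8 and 24.1 CPM against 8.06, 9.73 and 9.35 CPM (1.34, adjusted p = 3.73e-06), less than the 50.6, 55.0 and 54.3 CPM of starved cells. Tgif1, a repressor of SMAD signalling, crossed control, from 40.2, 43.5 and 39.8 CPM to 13.5, 15.6 and 14.4 CPM around 20.1, 19.5 and 20.6 CPM (-0.47, adjusted p = 0.000833).

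The 8 genes farthest past control were Mest, Gpcpd1 and Gjd3 upward and Klhl24, Tcp11l2, Gpr146, Ypel4 and Akr1c19 downward. Mest, Gpcpd1, Gjd3 and Akr1c19 were not called in starved against control (adjusted p = 0.0753, 0.288, 0.491 and 0.421). Mest, an imprinted gene of the hydrolase family (chr6:30723547-30748465, plus strand), was at 3.61, 3.57 and 4.29 CPM in control, 2.95, 3.58 and 2.35 CPM in starved and 19.9, 22.4 and 24.4 CPM in re-added cells. This was the largest rise of any gene that met the rule (2.54, SE 0.15, adjusted p = 9.09e-07), and control and starved libraries overlapped. Gpcpd1, which breaks down glycerophosphocholine, stood at 22.5, 20.4 and 22.3 CPM, 21.6, 20.4 and 18.7 CPM and 69.1, 72.8 and 68.4 CPM in the same groups (1.69, adjusted p = 1.62e-07). The connexin gene Gjd3 rose to 5.01, 5.62 and 5.37 CPM from 1.11, 1.46 and 1.73 CPM (1.89, adjusted p = 0.000516), a low level, and its call was not kept with the covariate (adjusted p = 0.215). Klhl24, of the kelch family of ubiquitin ligase adaptors, went from 107, 130.3 and 110.0 CPM in starved to 10.1, 6.05 and 7.16 CPM in re-added cells, with control between at 31.1, 20.4 and 34.0 CPM (-1.88 against control, SE 0.20, adjusted p = 4.69e-05; -3.90 against starved). Akr1c19, an aldo-keto reductase, overlapped control in starved cells (87.5, 102 and 87.0 CPM against 95.0, 89.9 and 73.9 CPM) and was lower after re-addition (28.8, 29.0 and 28.01 CPM, -1.59, adjusted p = 1.14e-06). Tcp11l2, the orphan receptor gene Gpr146 and Ypel4 are follower genes, with log2 fold changes of -1.73, -1.69 and -1.596, and the 3 kept their calls with the covariate. Sphk1, a sphingosine kinase, also crossed control, from 23.7, 31.1 and 23.6 CPM when starved to 2.09, 1.72 and 1.62 CPM after re-addition against 4.53, 4.87 and 4.77 CPM (-1.38, adjusted p = 6.84e-05).

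**Figure D5:**
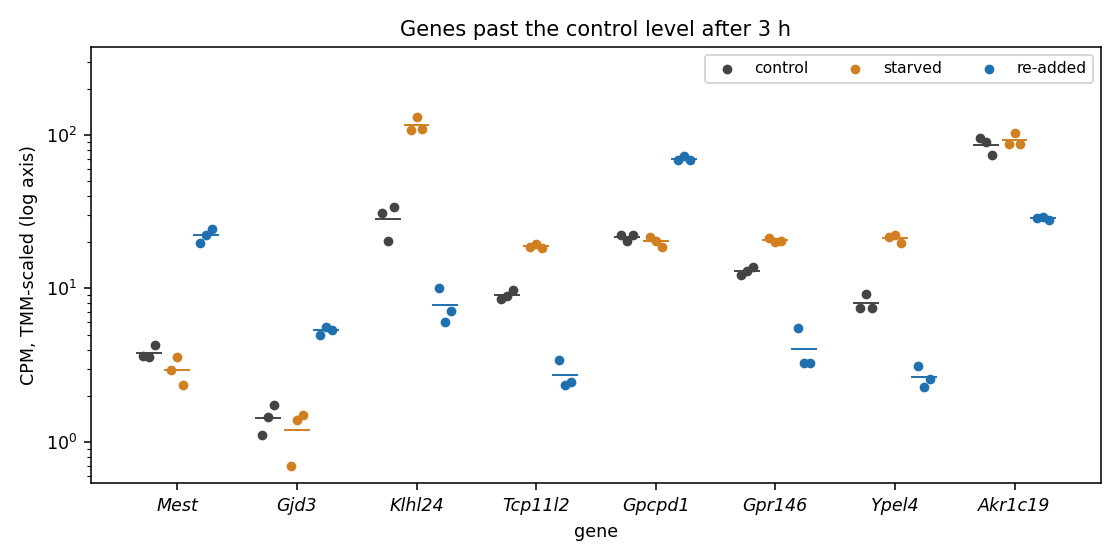
CPM (TMM-scaled, log axis) of the 8 genes with the largest difference from control among those whose control mean lay between the starved and the re-added mean, 1 point per library, with bars at group means. The re-added libraries of Mest lie at 19.9 to 24.4 CPM above all others, and those of Klhl24 at 6.05 to 10.1 CPM below all others.

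The medians of the clock and DNA replication lists lay below control after re-addition and slightly above it in starved cells (0.14 and 0.12). Of 19 circadian clock genes, 11 were lower and 4 higher, with a median of -0.71, and the covariate left 8 lower and 0 higher with a median of -0.72. The higher ones, named after their values were seen, were Arntl (0.75), which activates the clock, and Per1 (0.52), Per2 (0.53) and Cry1 (0.53), which repress it. Tef and Dbp, PAR bZIP factors driven by the clock, fell. Tef stood at 50.01, 49.8 and 59.8 CPM in control, 47.0, 56.4 and 50.3 CPM in starved and 21.0, 17.8 and 19.6 CPM in re-added cells (-1.45, SE 0.11, adjusted p = 4.02e-06). Dbp stood at 35.3, 47.8 and 39.2 CPM, 22.5, 25.6 and 23.8 CPM and 17.2, 17.8 and 17.9 CPM (-1.21, adjusted p = 1.06e-05). The labels give no hour of collection for any group.

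Of 29 genes of DNA replication and entry into S phase, 19 were lower and 1 higher, with a median of -0.34, and the covariate left 17 lower and 0 higher with a median of -0.55. The higher gene, named after its value was seen, was the phosphatase gene Cdc25a (0.35). Ung, which removes uracil from DNA, stood at 48.1, 51.9 and 42.4 CPM in control, 53.3, 60.3 and 59.1 CPM in starved and 23.2, 23.3 and 21.9 CPM in re-added cells (-1.05, SE 0.10, adjusted p = 1.56e-05). Its 3 re-added values lay below those of both other groups. Gins2, of the replicative helicase, fell in starved cells (52.1, 60.3 and 51.0 CPM against 85.4, 83.1 and 73.5 CPM) and was lower again after re-addition (45.6, 41.2 and 42.8 CPM, -0.90, adjusted p = 5.32e-05). Among 24 genes of mitosis, 11 were lower and 2 higher (median -0.23, -0.25 in starved cells), and 10 were called lower with the covariate. The higher ones, named after their values were seen, were the centromere genes Cenpe (0.75) and Cenpf (0.52). Aurkb, the Aurora B kinase, was at 98.5, 101 and 98.0 CPM in control and 60.2, 59.7 and 58.2 CPM in re-added cells (-0.74, adjusted p = 3.36e-05).

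Insulin genes and Pdx1 were below the control level after re-addition. Pdx1 (chr5:147269959-147275848, plus strand) stood at 621, 606 and 655 CPM in control and 462, 478 and 488 CPM in re-added cells, without overlap (-0.40, SE 0.08, adjusted p = 0.00165). Its starved libraries were lower still, at 365, 445 and 420 CPM (0.22 for re-added against starved cells, adjusted p = 0.0399). Ins1 was at 3452, 4306 and 2957 CPM in control, 2029, 2115 and 2167 CPM in starved and 1871, 2181 and 1776 CPM in re-added cells (-0.88, SE 0.12, adjusted p = 0.000226). Its re-added and starved libraries overlapped (-0.11, adjusted p = 0.465). Ins2 was at 25001, 32754 and 21926 CPM in control and 17173, 19947 and 16677 CPM in re-added cells (-0.57, adjusted p = 0.00382), and with the covariate the fold was no smaller but was not called (-0.62, adjusted p = 0.133). Mafa, an activator of the insulin genes, did not pass, at 306, 437 and 459.5 CPM in control and 242, 325 and 336 CPM in re-added cells (-0.41, SE 0.28, adjusted p = 0.242), and these libraries overlapped.

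Of 38 genes of β-cell secretion and hormones, 12 were higher (31.6%) and 9 lower (23.7%), shares near those of all tested genes (median 0.12), and the covariate left 1 higher and 7 lower with a median of -0.13. Slc30a8, the zinc carrier of insulin granules, stood at 413, 284 and 344 CPM in control, 116, 151 and 126 CPM in starved and 97.8, 99.9 and 99.4 CPM in re-added cells. It was lower in re-added than in starved cells (-1.81 against control, adjusted p = 2.85e-06; -0.40 against starved, adjusted p = 0.024). G6pc2, the islet glucose-6-phosphatase, showed the same order at 3093, 3068 and 2889 CPM, 1490.2, 1838 and 1639 CPM and 1218, 1292 and 1264 CPM (-1.26, adjusted p = 1.01e-06). Trpm5, a cation channel, had come up from 14.0, 18.4 and 15.1 CPM to 35.5, 38.4 and 37.2 CPM, short of 108, 127 and 99.7 CPM in control (-1.59, adjusted p = 2.59e-06). Among 21 β-cell transcription factors 6 were higher (28.6%) and 4 lower (19%), also near the shares of all tested genes (median 0.11). The covariate left 1 higher and 2 lower and turned the median to -0.10. The lower count was 2 without re-added replicate 2 or 3. The lower ones included Pdx1 and Pax6. Pax6 stood at 424, 410.3 and 403 CPM in control and 314, 326 and 314 CPM in re-added cells (-0.38, adjusted p = 0.00114). Hnf4a, a nuclear receptor, stood at 20.1, 15.7 and 25.1 CPM in control, 19.9, 24.9 and 20.4 CPM in starved and 46.5, 49.6 and 46.9 CPM in re-added cells (1.23, adjusted p = 7.23e-05). The β-cell and islet factor gene Glis3 was raised in both treated groups (36.8, 46.7 and 46.2 CPM and 43.8, 46.0 and 49.9 CPM against 20.2, 13.4 and 25.0 CPM, 1.25, adjusted p = 0.000321), and it was not called with the covariate (adjusted p = 0.11).

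The medians of lipid synthesis lists lay nearer control than in starved cells. Of 25 genes of cholesterol synthesis and uptake, 25 were lower in starved cells (median -0.77), while 9 were lower and 3 higher than control after re-addition (median -0.09, which became 0.03 on the TPM scale, -0.20 with the covariate and -0.21 without follower genes). The covariate left 0 higher and 4 lower. The higher ones included, named after their values were seen, Hsd17b7 (0.72) and Hmgcs1 (0.37), enzymes of the pathway. Insig1, which holds back SREBP activation, lay no nearer control than in starved cells. It stood at 299, 254 and 268 CPM in control, 151, 173 and 161 CPM in starved and 142, 138 and 136 CPM in re-added cells (-0.98, SE 0.08, adjusted p = 5.13e-06). The sterol reductase gene Tm7sf2 was at 22.3, 25.9 and 19.2 CPM in control and 9.39, 8.81 and 8.57 CPM in re-added cells (-1.33, adjusted p = 2.75e-05). In fatty acid synthesis 6 of 18 genes were lower (33.3%, against 24.5% of all tested genes) and 4 higher (22.2%, against 24.8%). The median was -0.07, or 0.03 on the TPM scale, and 2 were higher without control replicate 2 or without re-added replicate 2 or 3. The covariate left 0 higher and 3 lower with a median of -0.23. Scd2, a stearoyl-CoA desaturase, stood at 648, 754 and 702 CPM in starved and 2009, 2088 and 2271 CPM in re-added cells, below 2807, 2716 and 3153 CPM in control (-0.45 against control, adjusted p = 0.00158; 1.60 against starved, adjusted p = 1.5e-07).

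For mitochondria, the medians of the mitochondrial and the nuclear gene list lay on opposite sides of control. Of 13 protein-coding genes of the mitochondrial genome, 9 were higher and 0 lower (median 0.78, 0.77 in starved cells). Of the 13 genes, 7 are follower genes, and none was called with the covariate, with a median of 0.87. A fit without follower genes called 2 of 6 higher, with a median of 0.37. mt-Nd2, of complex I, was at 525, 699 and 663 CPM in control and 1239, 1061 and 1269.9 CPM in re-added cells (0.92, adjusted p = 0.00137). Of 44 nuclear genes of the respiratory chain, 19 were lower and 1 higher (median -0.25, -0.54 in starved cells), and the count of lower genes was 7 without re-added replicate 3, 11 without control replicate 2 and 2 with the covariate. The summed exons of these genes are short as well (median 1918 bases), and less the median of genes of like length the list stood at -0.09. Ndufb8, of complex I, was at 479, 529 and 389 CPM and 289, 286 and 256 CPM (-0.75, adjusted p = 0.000485). The higher gene was Sdha, the flavoprotein of complex II and a TCA cycle enzyme, at 265, 263 and 323 CPM in control and 507, 505 and 513 CPM in re-added cells (0.84, SE 0.09, adjusted p = 3.39e-05). Among 20 TCA cycle genes 9 were higher and 3 lower, or 1 and 2 with the covariate. Idh2, the mitochondrial isocitrate dehydrogenase, was one of the latter, at 247, 271 and 241 CPM in control, 178, 211 and 201 CPM in starved and 136, 128 and 131 CPM in re-added cells (-0.94, adjusted p = 5.56e-06). The others, named after their values were seen, were Pcx (-0.34) and Pdhb (-0.31). Proteasome genes, lower in starved cells for 28 of 34 (median -0.59), were lower for 13 and higher for 6 after re-addition (median -0.14). Without re-added replicate 3 the lower count was 4, without control replicate 2 it was 8, and none was called with the covariate, though the median was -0.28.

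The remaining lists held genes called in both directions, beside 24.8% higher and 24.5% lower of all tested genes. Shares higher and lower were 41.4% and 27.6% for nucleotide synthesis, 35.3% and 29.4% for immediate early genes and 38.1% and 28.6% for p53 targets. NRF2 had 27.3%, sphingolipid 29.4% and polyamine synthesis 30% in each direction. The latter lists, and the lower shares of the others, were near the shares of all genes. Of 29 genes of nucleotide synthesis and the pentose phosphate pathway, 12 were higher and 8 lower, or 5 lower without re-added replicate 3, and the covariate left 1 higher and 6 lower. G6pdx, the first enzyme of that pathway, was higher (47.4, 47.2 and 53.3 CPM in control, 76.7, 74.0 and 70.5 CPM in re-added cells, 0.58, adjusted p = 9.29e-05) and Taldo1, a later one, lower (239.5, 247 and 218 CPM and 144, 147 and 134 CPM, -0.73, adjusted p = 3.31e-05). Immediate early genes were split, with 12 of 34 higher and 10 lower. The lower count was 6 without control replicate 2 or 3 and 5 without re-added replicate 2 or 3, and the covariate left 4 higher and 1 lower. Fosb, a partner of Jun, rose to 19.8, 17.2 and 23.2 CPM from 5.10, 4.87 and 4.91 CPM in control and 10.5, 11.9 and 8.98 CPM in starved cells (2.02, SE 0.14, adjusted p = 2.62e-06), and Klf6, a follower gene, fell from 44.9, 42.9 and 38.9 CPM to 21.6, 18.7 and 19.1 CPM (-1.09, adjusted p = 8.54e-06). Of 21 p53 targets 8 were higher and 6 lower, and the lower count was 1 without control replicate 2, 1 without re-added replicate 2 and 2 without re-added replicate 3. The covariate left 3 higher and 0 lower. Aen, a nuclease, was at 17.5, 14.9 and 15.8 CPM in control and 33.0, 36.6 and 35.7 CPM in re-added cells (1.13, adjusted p = 3.74e-06). Of 22 genes of NRF2 and glutathione 6 were higher and 6 lower, with 9 follower genes, and the covariate left 2 higher and 0 lower. Srxn1, a sulfiredoxin, was at 61.1, 52.99 and 60.8 CPM and 93.3, 87.7 and 91.5 CPM (0.64, adjusted p = 0.000102), a call not kept with the covariate (adjusted p = 0.0719). Sphingolipid synthesis had 5 higher and 5 lower of 17, and polyamine synthesis 3 and 3 of 10. With the covariate these counts were 0 and 4 for sphingolipid and 1 and 1 for polyamine synthesis.

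Of the 8 largest rises by the rule, 4 are not yet described. Kcnh1, a voltage-gated potassium channel, stood at 62.8, 42.0 and 74.6 CPM in control, 89.1, 113 and 106 CPM in starved and 205, 213 and 223 CPM in re-added cells (1.84, SE 0.17, adjusted p = 1.32e-05). Iqsec3, an exchange factor for Arf GTPases, stood at 25.5, 17.7 and 34.5 CPM, 72.3, 88.6 and 85.1 CPM and 109, 117 and 120.5 CPM (2.15, adjusted p = 8.09e-06). For both, the re-added libraries were above all others. Shisa7, an accessory protein of neurotransmitter receptors, rose from 2.303, 2.70 and 3.57 CPM to 9.19, 10.9 and 12.3 CPM (1.92, adjusted p = 5.9e-05). Grem1, a secreted BMP antagonist, overlapped between starved (7.95, 9.84 and 7.22 CPM) and re-added cells (7.30, 9.77 and 9.38 CPM), against 2.69, 2.33 and 2.26 CPM in control (1.86, adjusted p = 1.39e-05). The 8 largest falls were of another kind. They were Xist, the immunoglobulin genes Igha and Igkc, the class II antigen gene H2-Ob, the matrix gene Mfap4, the connexin gene Gja1, and Ms4a4b and Fcgr2b of lymphoid cells. All but Xist are follower genes, and with the covariate no call of the 8 was kept. Mfap4, for example, stood at 53.3, 67.8 and 54.5 CPM in control, 46.0, 1.93 and 25.1 CPM in starved and 11.9, 1.38 and 3.28 CPM in re-added cells, high where the other-cell markers were high (-3.41, adjusted p = 0.00781). Xist stood at 27.2, 35.0 and 27.4 CPM, 20.4, 2.09 and 19.4 CPM and 0.0973, 0.0953 and 1.32 CPM in the same groups (-5.81, adjusted p = 0.00107). With the covariate the fold of Mfap4 was 0.30 and that of Xist, though not called, was -3.59 on the log2 scale (adjusted p = 0.14).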

How the data were processed

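Total RNA of MIN6 cells was sequenced in 12 libraries, 3 in each of 4 groups, which were assigned from the sample titles. The authors deposited raw read counts per Ensembl mouse gene and library, with exon coordinates and summed exon length per the file headers, and a table of TPM values (counts per exon length, scaled to a fixed sum) with gene names. The deposited TPM values equal counts over length, rescaled, within 5e-05, so they were used only for names and as an alternative. Of its columns 0 were left unassigned, and 174 genes had no name. The submitters' processing notes list GRCm38.p6, Subread 2.0.1 and limma 3.46.0 without roles. Aligner, strand setting and annotation release: not given in the sources used here. Overlapping, antisense and near-identical genes may thus share reads.

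The quasi-likelihood test of edgeR 4.0.16 (R 4.3.3) was run on the counts of the 12 libraries together, with TMM factors, a mean for each of the 4 groups and 8 residual degrees of freedom. The filterByExpr function (minimum count 10, minimum total 15) kept 16844 genes, which hold 99.92% of all counts. Benjamini-Hochberg adjustment ran over those genes, and calls are at 0.05. In the 6 libraries compared, 5 CPM corresponds to 94.2 to 128 reads. Where identifiers share a symbol, the one with the highest mean CPM was used. Alternatives were DESeq2 1.42.0, limma 3.58.1 on log2(TPM + 1) and log2(TPM + 0.1), other scaling and filters, the 6 libraries alone, a replicate block, the marker sum as a covariate, the follower genes left out, and each library left out in turn. Exon length was added as a description once results were known.

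The comparison, the 32 gene lists, the markers and the rules were chosen with earlier results of these data known. Named genes are Pdx1, Ins1, Ins2 and Mafa, the 8 largest rises and falls among called genes of at least 5 CPM with a proper symbol and non-overlapping groups, the 8 such genes farthest short of and past control, and the 3 members of each list with the smallest adjusted p. Not all of them are described. Genes short of control also had to be called in starved against control, and genes past control in re-added against starved cells. Promoter windows were taken from the RefSeq table at the start nearest the 5′ end of the gene in the count files. Some genes that the lists or the naming rule hold are not reported here by name.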

Additional observations from a re-analysis of the deposited data

How the results depend on the processing

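The counts of 4172 higher and 4132 lower genes stayed within 1.5 times of these values under upper-quartile and DESeq2 scaling, other filters on low counts, the 6 libraries alone, the follower genes left out and TPM with limma. With the marker sum as a covariate 434 genes were higher and 743 lower, so that 36.9% of calls were upward instead of 50.2%. Leaving out each library in turn gave 3028 to 4162 higher and 2176 to 4213 lower genes. The lower count was 2368 without re-added replicate 2 and 2176 without re-added replicate 3, the libraries with the fewest other-cell transcripts. The cause was not tested. With log2(TPM + 1) and log2(TPM + 0.1) the median over all genes was 0.11 and 0.13 instead of 0.02, and 59.1% and 59.7% of calls were upward. Of 125 named genes tested with the covariate, 90 kept their side of the threshold and 32 lost their call, while Mfap4 (0.30), Gja1 (0.26) and Fcgr2b (0.20) reversed. Outside the covariate, Fcgr2b lost its call without re-added replicate 2 (-2.80) or 3 (-2.82), and Ms4a4b without re-added replicate 3 (-2.81).

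The replicate numbers were not taken as pairs, since deviations of same-numbered libraries from their group means correlated at -0.209, -0.084 and 0.04 over all tested genes, and 1 of 6 libraries correlated best with its own number. A fit with the replicate block called 3999 genes higher and 4110 lower.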
